A study of Mus musculus with 12 samples.

Results

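The collagens described here are those that surround and decorate the striated fibrils of connective tissue. They comprise the 3 classical chains of collagen VI (Col6a1, Col6a2 and Col6a3), the short-chain network collagen Col8a1, and the fibril-associated collagens Col9a1, Col12a1, Col14a1, Col16a1 and Col22a1. The 9 genes were taken by symbol from the 27998 gene rows of 12 single-cell count matrices. All 9 were listed, and all 9 had unique molecular identifiers (UMIs, each standing for 1 captured mRNA molecule) in the cells kept.

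The study followed serum transfer-induced arthritis (STIA), a joint inflammation that arthritogenic serum of K/BxN (KRN) mice brings about and that later subsides. All mice were C57BL/6 wild-type males of 8 to 10 weeks. The libraries labelled rest came from untreated mice at day 0. The others came from mice given 100 µl of serum into a vein and taken at days 7 to 9 for the label peak, at day 15 for resolving and at day 22 for resolved. Each label had 3 libraries, each made from live CD45-negative cells of the hind limb joints of 3 pooled animals, so that a library is the replicate and single animals cannot be seen. The comparisons asked in which joint cell types each collagen was found, how the lining and sublining fibroblasts differed, and whether levels moved with the label.

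Collagen VI chains assemble into beaded microfilaments that lie around cells and link them to the matrix, and all 3 chains are needed for a stable molecule. Collagen VIII forms hexagonal lattices and is known from vessel walls and corneal basement membranes. The fibril-associated collagens bind to the surface of fibrils with interrupted triple helices: collagen IX covers the collagen II fibrils of cartilage, XII and XIV sit on collagen I fibrils, XVI is found with fibrils and microfibrils of several tissues, and XXII is known from tissue junctions such as that of muscle with tendon and the surface zone of joint cartilage. Synovial fibroblasts are divided by position into a lining layer that faces the joint cavity and makes lubricin (Prg4), and a deeper sublining.

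In the mouse genome (GRCm38) Col6a1 (chr10:76708792-76726168) and Col6a2 (chr10:76595762-76623630) lie on the minus strand 85161 bases apart. Col6a3 (chr1:90765923-90843971, minus) and Col9a1 (chr1:24177610-24252684, plus) share chromosome 1. Col8a1 is at chr16:57624258-57754737 (minus), Col12a1 at chr9:79598991-79718831 (minus) and Col16a1 at chr4:130047840-130099283 (plus). Col14a1 (chr15:55307750-55520803, plus) and Col22a1 (chr15:71795795-72034227, minus) are both on chromosome 15. The antisense genes 4930562D21Rik, 1700040F17Rik and Gm16308 overlap Col12a1, Col14a1 and Col22a1 on the opposite strand.

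RefSeq held a promoter for 6 of the 9 members, and the 250 bases before the start site are shown for 5 of them. Col6a1, Col6a2 and Col6a3 are shown because their levels moved together over the cell clusters, Col9a1 and Col16a1 because chondrocyte-like and osteoblast-like cells led them. Each is written 5′ to 3′ on the gene's strand (GRCm38.p6), with matches to the GC box GGGCGG, the CCAAT box, TATAAA and the AP-1 letters TGACTCA, on either strand, in capitals. The regions are chr10:76726045-76726294 (minus) for Col6a1, chr10:76623631-76623880 (minus) for Col6a2, chr1:90843972-90844221 (minus) for Col6a3, chr1:24177360-24177609 (plus) for Col9a1 and chr4:130047590-130047839 (plus) for Col16a1.
Col6a1: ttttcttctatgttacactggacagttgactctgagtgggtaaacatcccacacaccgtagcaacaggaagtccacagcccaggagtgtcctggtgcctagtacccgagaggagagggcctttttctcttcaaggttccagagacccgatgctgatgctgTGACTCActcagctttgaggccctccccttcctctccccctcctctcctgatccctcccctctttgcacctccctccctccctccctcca
Col6a2: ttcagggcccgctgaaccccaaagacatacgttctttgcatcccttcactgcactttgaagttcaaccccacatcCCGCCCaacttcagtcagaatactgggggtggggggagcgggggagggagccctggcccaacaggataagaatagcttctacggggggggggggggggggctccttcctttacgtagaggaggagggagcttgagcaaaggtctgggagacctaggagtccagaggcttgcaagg
Col6a3: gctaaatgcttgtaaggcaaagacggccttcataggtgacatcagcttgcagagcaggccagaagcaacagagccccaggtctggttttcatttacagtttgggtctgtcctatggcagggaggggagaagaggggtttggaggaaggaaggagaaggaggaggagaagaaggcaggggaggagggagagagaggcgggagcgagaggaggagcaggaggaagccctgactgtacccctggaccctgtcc
Col9a1: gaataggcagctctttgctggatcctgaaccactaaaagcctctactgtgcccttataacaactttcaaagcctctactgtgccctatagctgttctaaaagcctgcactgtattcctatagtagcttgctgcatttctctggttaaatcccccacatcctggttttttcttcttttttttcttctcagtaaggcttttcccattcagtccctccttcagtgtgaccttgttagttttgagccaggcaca
Col16a1: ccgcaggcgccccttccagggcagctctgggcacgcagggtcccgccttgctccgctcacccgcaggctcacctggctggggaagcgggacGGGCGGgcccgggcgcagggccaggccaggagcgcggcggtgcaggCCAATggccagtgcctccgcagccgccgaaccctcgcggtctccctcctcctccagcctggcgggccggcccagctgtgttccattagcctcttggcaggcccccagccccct
Col6a1 held 1 match to the AP-1 letters, Col6a2 held 1 GC box and Col16a1 held 1 GC box and 1 CCAAT box, while Col6a3 and Col9a1 held none of the 4 motifs. Of 32851 mouse promoters of this length, 32.7% held the GC box, 33.8% CCAAT, 12.4% TATAAA and 4.46% the AP-1 letters, so the matches are a description of the letters only. The 5 stretches ranged from 43.6% G and C in Col9a1 to 75.6% in Col16a1, against a median of 52.4% over all promoters. The RefSeq start of Col6a1 lies 124 bases inside the gene as placed above, and its AP-1 match falls inside that gene. RefSeq also lists a second start of Col6a2, 226 bases inside the gene (not shown, 3 GC boxes and 64.4% G and C), and a start 17593 bases inside Col9a1, and 3′ counting does not tell the starts apart.

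The 12 libraries held 21042 deposited cells, of which 20060 were kept (1227 to 2747 a library, with 7468914 to 16566202 UMIs a library). The median UMI count of the deposited cells was 5358 in each of the 12 libraries, and how this came about is not given in the sources used here. No cell barcode was shared between libraries. The number at the end of each barcode runs from 1 to 12 and cuts across the labels: rest replicates 1 to 3 carry 1, 5 and 9, peak 2, 6 and 10, resolving 3, 7 and 11, and resolved 4, 8 and 12. In fibroblast-like cells the nearest library over 11625 genes carried a suffix of the same run of 3 (1 to 3, 4 to 6, 7 to 9 or 10 to 12) for 12 of 12 libraries and the same label for 0 of 12. The labels are used as given, and levels in fibroblast-like cells are also compared by run of suffixes. A run is no labelled group, and no disease stage is assigned to it.

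Although the labels say synovial stromal cells, the clusters held many joint cell types. Of the kept cells 53.8% (10788) were fibroblast-like, 1768 vascular endothelial-like, 1420 tenocyte-like, 1352 osteoblast-like, 671 proliferating, 655 perivascular-like and 305 chondrocyte-like. Small classes were muscle-like (261 cells), lymphatic endothelial-like (186), immune-like (112, although CD45-positive cells were to be removed), Schwann-like (82) and erythroid-like (60), and 2400 cells stayed unnamed. In each named class all of its markers were found in a larger share of its cells than of other cells. Among fibroblast-like cells a cluster of 1197 passed for the lining markers (Prg4, Clic5, Tspan15, Htra4 and Itga6) and a cluster of 1243 for the sublining markers (Cd34, Thy1, Pi16, Dpp4 and Sema3c). Levels are in CPM, the UMIs of a gene over all UMIs of a class in a library on the usual counts-per-million scale, given as mean ± SD over libraries with at least 10 cells of the class. The summed counts of all genes entered the quasi-likelihood test of edgeR, and a gene was called at a Benjamini-Hochberg adjusted p below 0.05 with a log2 fold change beyond 0.5. The p-values measure the spread between libraries and do not cover that the classes were themselves found by clustering these cells.

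Across cell types, the 9 collagens fell into sets with different leading cells. Col6a1 and Col6a2 were found at overlapping levels in fibroblast-like, tenocyte-like, osteoblast-like, chondrocyte-like, perivascular-like and proliferating cells, and Col6a3 in the same classes with wider differences. Col9a1 was a chondrocyte-like transcript, Col12a1 and Col16a1 led in osteoblast-like cells, Col14a1 in fibroblast-like cells, and Col22a1 in 1 fibroblast cluster, the lining. Against fibroblast-like cells, 67 of 99 pairs of member and class were called, 13 higher and 54 lower, and 10 of the 67 rested on 3 or fewer UMIs in the class. Of all genes tested, 13.3% (erythroid-like) to 52.9% (vascular endothelial-like) were called in the 11 classes compared. By direction these shares were 4.81 to 26.9% higher and 7.32 to 26.6% lower. For each member, neighbours in the order of class means overlapped in their ranges, except in 2 cases: Col9a1 between chondrocyte-like and proliferating cells and Col16a1 between osteoblast-like and proliferating cells.

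**Figure D1:**
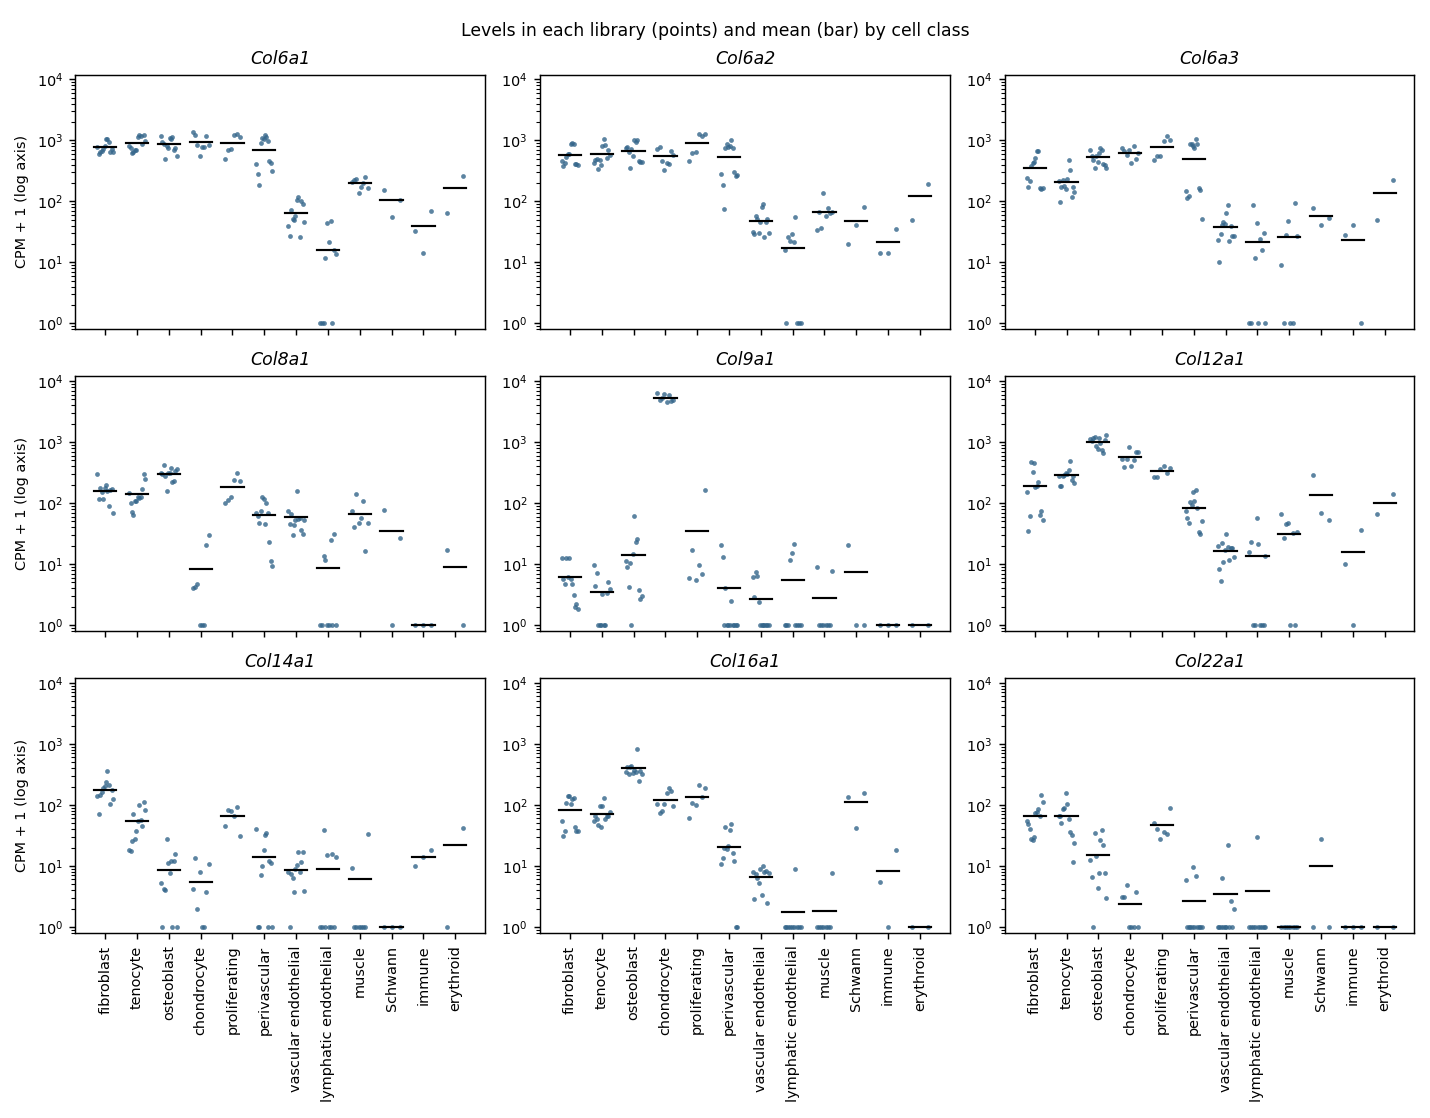
Level of each collagen (CPM plus 1, log axis) in each marker-named class, 1 point per library with at least 10 cells of the class and a bar at the mean. Col9a1 in chondrocyte-like cells (4478 to 6376) stood apart from every other class, while Col6a1 in fibroblast-like, tenocyte-like and osteoblast-like cells overlapped.

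Col6a1, which encodes the α1 chain of collagen VI, was at 769 ± 154 CPM (SD, n = 12) in fibroblast-like cells, with a lowest library of 590.2, a median of 721 and a highest of 1045. It was at 947 ± 279 (n = 8) in chondrocyte-like, 901 ± 228 (n = 12) in tenocyte-like and 859 ± 220 (n = 12) in osteoblast-like cells, ranges that all overlapped. Col6a2, the α2 chain, was at 570.2 ± 203 in fibroblast-like, 593 ± 216 in tenocyte-like and 670.4 ± 229 in osteoblast-like cells (n = 12 each) and at 544 ± 168 in chondrocyte-like cells (n = 8). Chondrocyte-like cells thus had the highest mean of these 4 classes for Col6a1 and the lowest for Col6a2, over fewer libraries. Against fibroblast-like cells of the same library, Col6a2 in chondrocyte-like cells was not called (log2 change 0.22, 95% interval -0.18 to 0.62, higher in 3 of 8). Proliferating cells held Col6a1 at 920 ± 328 and Col6a2 at 905 ± 366 CPM (n = 6). These 6 libraries were all of suffixes 4 to 9, since the other runs held 1 to 6 such cells a library. Against fibroblast-like cells of the same library, proliferating cells were higher in 3 of 6 for Col6a1 and in 5 of 6 for Col6a2. Neither chain was called between tenocyte-like or osteoblast-like and fibroblast-like cells. The 95% interval of the log2 difference for osteoblast-like cells ran from -0.26 to 0.43 for Col6a1 and from -0.16 to 0.52 for Col6a2. Endothelial cells had little: Col6a1 was at 64.2 ± 31.4 (n = 12) in vascular and 14.9 ± 17.5 (n = 10) in lymphatic endothelial-like cells. In single cells, 87.8% of fibroblast-like cells held a Col6a1 UMI (95% Wilson interval 87.2 to 88.4; median depth 5481 UMIs) against 11.8% of vascular endothelial-like cells (10.3 to 13.4; median depth 3176), and 68.5% against 6.90% after thinning each cell to 2000 UMIs. Intervals cover counting error only.

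Col6a3, the α3 chain, which carries most of the globular domains of the collagen VI molecule, varied more. It was at 351 ± 193 CPM in fibroblast-like cells (n = 12), 526 ± 139 in osteoblast-like (n = 12), 628 ± 133 in chondrocyte-like (n = 8) and 208 ± 104 in tenocyte-like cells (n = 12). Osteoblast-like cells were higher than fibroblast-like cells by 0.71 on the log2 scale (SE 0.21, adjusted p = 0.00339, edgeR), in 11 of 12 libraries. The call was lost under the coarser clustering (0.25) and without the library block (0.52). Within runs, that mean log2 ratio was 1.45 for suffixes 1 to 3 and 1.23 for 10 to 12, but 0.11 for 4 to 6 and 0.17 for 7 to 9. Chondrocyte-like cells were higher by 1.17 (SE 0.24, adjusted p = 1.52e-05), though in 5 of 8 libraries, and in 0 of 2 of suffixes 7 to 9. Col6a3 was also higher in proliferating cells by 0.65 (SE 0.25, adjusted p = 0.032), a call lost without rest replicate 3, resolving replicate 2 or resolved replicate 2 at 0.57 to 0.63, and under 6 other alternatives (0.37 to 0.54). For Col6a1 the call in chondrocyte-like cells (0.53, SE 0.20, adjusted p = 0.0228) was lost without any one of rest replicates 1, 2 and 3, peak replicate 1, resolving replicate 2 and resolved replicates 1 and 3 (0.29 to 0.49), and under 11 other alternatives (0.24 to 0.50). Called against fibroblast-like cells were 7 of 9 members in osteoblast-like cells (5 higher, 2 lower) and 8 of 9 in chondrocyte-like cells (5 higher, 3 lower). Of all 10401 genes tested 29.2% were called in the first (13.4% higher, 15.7% lower) and 47.2% in the second (21.9% higher, 25.3% lower).

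Perivascular-like cells, the pericytes and smooth muscle around vessels, held as much collagen VI as fibroblast-like cells on average, but in 2 separate ranges. Col6a3 was at 751 to 1032 CPM in the 6 libraries of suffixes 4 to 9, above fibroblast-like cells in 6 of 6, and at 50.1 to 165 in the other 6, below fibroblast-like cells in 6 of 6. Col6a1 was at 894 to 1243 CPM in the first 6 and 185 to 457 in the other 6. Over all 12 libraries neither was called, with log2 differences of 0.30 (95% interval -0.12 to 0.71) for Col6a3 and -0.31 (-0.66 to 0.05) for Col6a1. The 5 fibril-surface and network collagens called in these cells were all lower, among them Col12a1 (81.9 ± 42.7 CPM, log2 change -1.15, adjusted p = 2.92e-05) and Col8a1 (61.7 ± 38.2 CPM, -1.28, adjusted p = 2.96e-06). In this contrast 38.7% of all genes tested were called (17.9% higher, 20.8% lower).

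Col8a1, the α1 chain of collagen VIII, was highest in osteoblast-like cells at 299.9 ± 72.8 CPM, against 156 ± 58.8 in fibroblast-like and 140 ± 69.1 in tenocyte-like cells (n = 12 each). The 12 libraries of osteoblast-like cells ran from 155 to 418, and each was above its own fibroblast-like cells (log2 change 0.88, SE 0.19, adjusted p = 4.65e-05). The ranges of both classes overlapped, since fibroblast-like cells reached 296. Col8a1 was nearly missing from chondrocyte-like cells at 7.27 ± 10.8 CPM (n = 8, 20 UMIs in all; log2 change -4.60, SE 0.43, adjusted p = 2.06e-16, lower in 8 of 8). Vascular endothelial-like cells, in which collagen VIII is known as a matrix product, held 57.2 ± 33.2 CPM (n = 12), 1.74 lower on the log2 scale than fibroblast-like cells (adjusted p = 7.85e-12). It was the smallest of 9 lower calls in that class, where 52.9% of all genes tested were called (26.9% higher, 26% lower). No Col8a1 UMI was found among 357505 UMIs of the 3 immune-like sums, which makes it at least 20.6-fold lower there (floor of 3 counts over the group).

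Col9a1, the α1 chain of cartilage collagen IX, was at 5313 ± 714 CPM in chondrocyte-like cells (n = 8). Suffixes 1 to 3 had 6376, 4936 and 5205 CPM, 4 to 6 had 6098, 4478 and 5894, and 7 and 8 had 4676 and 4837. No library came near these values in any other class, where the highest of a named class was 162 CPM in proliferating cells of rest replicate 3. Against fibroblast-like cells (5.16 ± 4.16 CPM, n = 12) the log2 change was 9.94 (SE 0.35, adjusted p = 1.24e-44, higher in 8 of 8). Of chondrocyte-like cells 99.3% held a Col9a1 UMI (97.6 to 99.8), with a median depth of 12591 UMIs. The share in fibroblast-like cells was 2.85% (2.55 to 3.18) and in vascular endothelial-like cells 0.566% (0.308 to 1.04). At 2000 UMIs a cell the shares were 98.7%, 0.860% and 0.255%. Lower calls elsewhere rest on few molecules: the call in vascular endothelial-like cells (log2 change -1.91, adjusted p = 0.00458) comes from 10 UMIs.

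Col9a1 was also called in osteoblast-like cells (13.05 ± 16.6 CPM, log2 change 1.01, SE 0.37, adjusted p = 0.0241) and proliferating cells (33.6 ± 62.8 CPM, 1.11, SE 0.40, adjusted p = 0.0239). In osteoblast-like cells suffixes 7, 8 and 9 had 59.4, 22.3 and 24.4 CPM and the other 9 libraries 0 to 13.5. That call was lost without resolving replicate 2 or resolved replicate 2 (0.46 and 0.80). In proliferating cells, rest replicate 3 alone was high, and the call was lost without rest replicate 2 or 3 (0.10 and 0.94). Whether chondrocyte transcripts from other cells take part in these values was not tested.

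The other chains of collagen IX moved with Col9a1 in chondrocyte-like cells. Of 10 further chains of these collagen families 5 were tested, 3 were higher and 1 lower, with Col9a3 at a log2 change of 10.57 and Col9a2 at 10.28 (SE 0.32 for both, adjusted p = 1.89e-50 and 6.85e-48). Col8a2, the partner chain of Col8a1, was lower (log2 change -1.59, adjusted p = 4.12e-06). Of 9 fibrillar collagens 3 were higher and 6 lower (list median -2.49, all genes -0.08), with Col2a1 at 11.14 and Col11a2 at 10.47, the fibril collagens of cartilage, against Col3a1 at -4.14. Of 10 matrix partners 5 were higher and 3 lower. The matrilins Matn1 (9.64) and Matn3 (9.53), which bridge cartilage collagens, were the highest and Tnxb, a tenascin of loose connective tissue, the lowest (-5.70). Of 9 collagen receptors tested 4 were higher, among them the collagen II-binding integrin chain Itga10 (3.80) and the collagen VI-binding proteoglycan Cspg4 (3.19), and 5 lower.

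Col12a1, a fibril-surface collagen of tissues under load, was at 1006 ± 204 CPM in osteoblast-like cells (n = 12; 673 to 1332, median 1053). The level in fibroblast-like cells was 190.0 ± 153 CPM (n = 12; 33.7 to 477), and the ranges did not overlap. The log2 change was 2.63 (SE 0.21, adjusted p = 2.8e-20), higher in 12 of 12 libraries, with mean log2 ratios within runs from 1.18 (suffixes 4 to 6) to 4.0 (1 to 3). Chondrocyte-like cells followed at 570.4 ± 150 CPM (n = 8; log2 change 1.90, SE 0.23, adjusted p = 8.69e-12, higher in 8 of 8). Tenocyte-like cells, from tendon and ligament, were at 283 ± 80.4 CPM (n = 12), with a log2 change of 0.94 (SE 0.20, adjusted p = 0.000161). They were higher in 9 of 12 libraries but lower in 3 of 3 of suffixes 4 to 6, and the call was lost under 3 other clusterings (0.30 to 0.62). Col12a1 and Col14a1 were the 2 members called in tenocyte-like cells, where 17.9% of all genes tested were called (8.16% higher, 9.78% lower).

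Col16a1 was likewise highest in osteoblast-like cells, at lower counts. It was at 395 ± 143 CPM in osteoblast-like cells (244 to 815, median 352) and 81.3 ± 45.6 in fibroblast-like cells (29.7 to 141), n = 12 each, with no overlap. The log2 change was 2.34 (SE 0.15, adjusted p = 2.32e-26), higher in 12 of 12 libraries, and the mean log2 ratio within runs ran from 1.62 for suffixes 4 to 6 to 3.17 for 1 to 3. In osteoblast-like cells the library at 815 was rest replicate 3, and the next was at 433. Chondrocyte-like cells were at 120.2 ± 43.3 CPM (n = 8, log2 change 0.80, SE 0.19, adjusted p = 0.000282, higher in 6 of 8), a call lost under 3 alternatives (0.14 to 0.59). Proliferating cells, at 133 ± 57.1 CPM (n = 6), overlapped with them. Tenocyte-like cells (71.1 ± 25.3 CPM, n = 12) had a mean below that of fibroblast-like cells but were not called. They were higher in 6 of 12 libraries and lower in 6.

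Among the lists, osteoblast-like cells had 5 of 9 fibrillar collagens higher and 1 lower (list median 1.33, all genes -0.00), led by Col11a2 (4.56) and Col11a1 (3.02), with Col5a3 lower (-1.56). Col8a2 (1.90) and Col9a2 (1.43) were higher and Col20a1 lower (-2.43) among 5 further chains. Of 9 receptors 2 were higher, the integrin chains Itga10 (3.00) and Itga11 (1.33), which pair with Itgb1 to bind fibrillar collagen. Of 10 matrix partners 2 were higher (Tnc 2.45, a tenascin, and Fmod 1.60, a fibril-binding proteoglycan) and 3 lower, among them Tnxb (-5.83) and Fn1 (-2.38). In tenocyte-like cells 2 fibrillar collagens were higher (Col11a2 4.06, Col11a1 1.84) and 3 lower, and 3 matrix partners were higher (Fmod 4.33, Comp 2.13 among them) and 3 lower. For osteoblast-like cells DESeq2 scaling moved the median of all genes by 0.12 and the share of higher calls from 46.04% to 57.2%.

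Col14a1, the fibril-surface collagen of skin and tendon sheaths, was highest in fibroblast-like cells at 177 ± 75.6 CPM (n = 12; lowest 69.6, median 168, highest 362). Tenocyte-like cells held 52.6 ± 31.4 CPM (log2 change -1.59, SE 0.18, adjusted p = 6.34e-12) and osteoblast-like cells 7.61 ± 7.84 (-4.62, SE 0.25, adjusted p = 7.62e-31), both lower in 12 of 12 libraries. Perivascular-like cells were at 13.2 ± 14.3 and chondrocyte-like cells at 4.48 ± 4.70 CPM. It was the reverse of Col12a1 and Col16a1, which led in osteoblast-like cells. No Col14a1 UMI was found in the 3 Schwann-like sums (at least 6.45-fold lower, floor of 3 counts over the group).

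Col22a1 was at 64.2 ± 35.7 CPM in fibroblast-like cells (25.2 to 142) and 63.8 ± 39.7 in tenocyte-like cells (10.6 to 155), n = 12 each. The log2 difference between them was 0.01 (95% interval -0.49 to 0.51), a mean over runs that lay on opposite sides. The mean log2 ratio of tenocyte-like to fibroblast-like cells was 0.33 in suffixes 1 to 3 and 1.94 in 4 to 6, higher in 6 of 6 libraries, but -0.38 in 7 to 9 and -2.29 in 10 to 12, where it was lower in 3 of 3. Osteoblast-like cells held 13.9 ± 12.8 CPM (log2 change -2.35, SE 0.32, adjusted p = 1.95e-09, lower in 11 of 12) and vascular endothelial-like cells 2.44 ± 6.16 CPM from 17 UMIs. Muscle-like cells, of which 37.2% held the satellite cell gene Pax7 and 47.9% Myod1, had no UMI among 714368, which makes them at least 18.2-fold lower (floor of 3 counts over the group).

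The small classes held few collagen UMIs. In the 3 immune-like sums the 9 members had 0 to 12 UMIs, and in the 10 lymphatic endothelial-like sums 1 to 17. Muscle-like cells held Col6a1 at 198 ± 38.0 CPM (n = 8), above Col6a1 in vascular endothelial-like cells in range. In Schwann-like cells, the glia of peripheral nerve, Col16a1 was at 111 ± 62.3 CPM and Col12a1 at 136 ± 133 (n = 3, 16 and 22 UMIs). Members called, all lower, were 8 of 9 in each of the immune-like, lymphatic and muscle-like classes, 5 in Schwann-like and 4 in erythroid-like cells. Of all genes tested 29.7% were called in immune-like cells (12.2% higher, 17.4% lower), 38.2% in lymphatic (12.7% and 25.5%) and 37.7% in muscle-like cells (11.1% and 26.6%). The shares were 16% in Schwann-like (4.81% and 11.1%) and 13.3% in erythroid-like cells (5.95% and 7.32%). Other scaling moved the median of all genes in these classes by 0.11 to 0.95 on the log2 scale, so their fitted folds are not given. In proliferating cells 3 of 9 members were called (2 higher, 1 lower) against 27.7% of all genes (12.2% higher, 15.5% lower), among them Col14a1 lower at 65.5 ± 24.6 CPM (log2 change -1.71, adjusted p = 2.35e-10).

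Between lining-like and sublining-like fibroblasts, Col22a1 and Col14a1 differed in opposite directions. Col14a1 was not limited to the sublining-like cluster, since other fibroblast clusters described below held it as well. Col22a1 was at 372 ± 67.3 CPM in lining-like cells and 1.57 ± 2.19 in sublining-like cells (n = 12 each). Each of the 12 lining-like sums (230.2 to 470.3) lay above every sublining-like sum (0 to 6.35). The log2 change was 7.77 (SE 0.22, adjusted p = 2.17e-20). Col14a1 was at 25.3 ± 12.6 CPM in lining-like (6.36 to 47.9) and 302 ± 96.1 in sublining-like cells (90.2 to 479), again with no overlap (log2 change -3.59, SE 0.14, adjusted p = 1.03e-17). Of 8 members tested 5 were called (3 higher, 2 lower), against 31.7% of the 8608 genes tested (15.4% higher, 16.3% lower), and each sum of one subset was paired with the other of the same library. Col9a1 was too low to be tested in either subset.

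**Figure D2:**
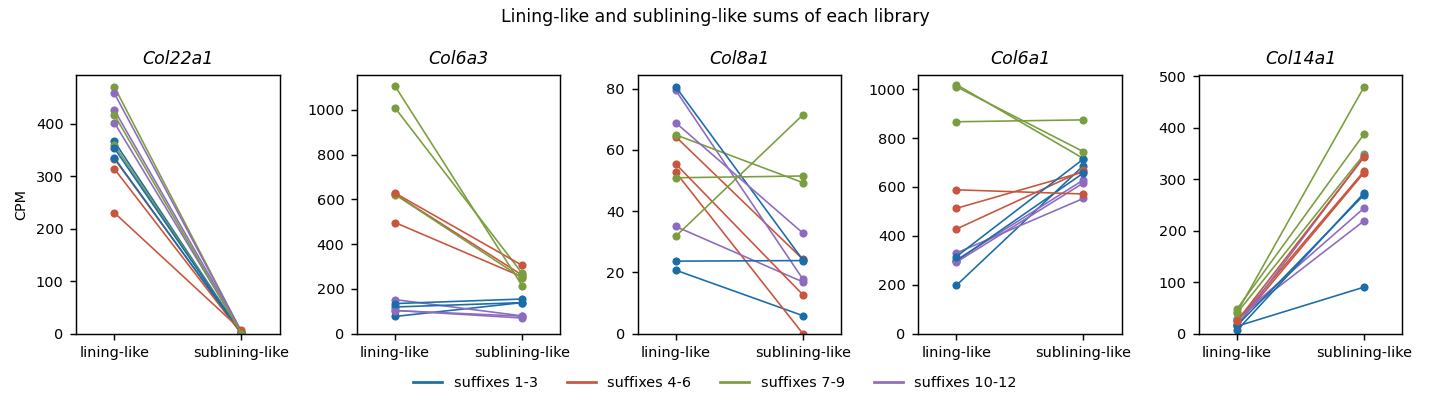
Levels (CPM, each axis from 0) of the 5 called collagens in lining-like and sublining-like fibroblasts, with a line joining both sums of a library, coloured by run of suffixes. Col22a1 is higher and Col14a1 lower in lining-like cells in 12 of 12 libraries, while Col6a3 and Col8a1 are higher in 9 of 12 and Col6a1 lower in 9 of 12.

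Of lining-like cells 70.6% held a Col22a1 UMI (67.9 to 73.1; median depth 7905 UMIs) and of sublining-like cells 0.805% (0.438 to 1.47). In vascular endothelial-like cells the share was 0.396% (0.192 to 0.815; median depth 3176). At 2000 UMIs a cell the 3 shares were 46.4%, 0.244% and 0.255%. Col14a1 UMIs were in 54.4% of sublining-like (51.6 to 57.1; median depth 4965) and 12.9% of lining-like cells (11.2 to 15.0), and in 2.38% of vascular endothelial-like cells. The sublining-like share of Col22a1 was thus at the level of cells that should lack it, whereas the lining-like share of Col14a1, 5.27% at 2000 UMIs, was above the 1.47% of vascular endothelial-like cells.

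The collagen VI chains split between the layers. Col6a1 was lower in lining-like cells (513 ± 295 against 675 ± 85.1 CPM, log2 change -0.64, SE 0.15, adjusted p = 0.00107), in 9 of 12 libraries. Col6a3 was higher (431 ± 370 against 184 ± 84.3 CPM, 0.75, SE 0.18, adjusted p = 0.00148), in 9 of 12. Col6a2 was not called, at 477 ± 310 and 411 ± 141 CPM (95% interval of the log2 difference -0.33 to 0.24). These means hide the runs of suffixes. Col6a3 in lining-like cells was at 134, 76.4 and 119 CPM for suffixes 1 to 3, at 496, 628 and 623 for 4 to 6, at 621, 1009 and 1106 for 7 to 9, and at 152, 104 and 103 for 10 to 12. It was below the sublining-like cells of the same library in 3 of 3 of suffixes 1 to 3 and above them in 9 of 9 others. The Col6a3 call was lost with no upper limits on genes and UMIs and with collagen genes among the clustering genes (0.50 and 0.11), and the Col6a1 call without the library block (-0.49).

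Col6a1 in lining-like cells was below sublining-like cells in 3 of 3 libraries of suffixes 1 to 3 (197 to 315 against 657 to 715 CPM) and of 10 to 12 (292 to 329.7 against 553 to 629), and mixed in the rest. Col8a1 was higher in lining-like cells (52.3 ± 20.6 against 27.5 ± 20.6 CPM, log2 change 1.03, SE 0.21, adjusted p = 0.000247), in 9 of 12 libraries. That call turned to -0.15 with no upper limits on genes and UMIs and to -0.28 with collagen genes among the clustering genes, so its direction was not stable. Col12a1 (39.7 ± 36.9 and 26.5 ± 19.7 CPM) and Col16a1 (33.7 ± 23.8 and 30.7 ± 19.7) were not called, with 95% intervals of -0.56 to 0.44 and -0.30 to 0.40. Both layers were low in them beside the clusters led by Nppc and by Cxcl5 described next.

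Genes around these collagens also differed between the layers. Of 8 fibrillar collagens tested 4 were lower in lining-like cells, among them Col1a2 (-2.18) and Col1a1 (-1.68), and Col5a3 was higher (1.89); the list median was -0.77 and that of all genes 0.02. Of 8 matrix partners tested 6 were higher, led by Tnc (4.70) and Matn4 (4.32), and Tnxb was lower (-2.18), with a list median of 1.72. Of 7 receptors tested 2 were higher, Cspg4 (3.27) and the shared integrin chain Itgb1 (0.68), and 3 lower, among them Antxr2 (-2.30), which binds collagen VI, and Itga11 (-1.87). Of the further chains of the same families 1 was tested and 0 were called.

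The other fibroblast clusters differed in collagens too. They are given as a description, with no test, since the cells were clustered on their expression, although the collagen genes were left out of the clustering. A cluster of 953 cells led by Nppc, Vipr2 and Egfl6 held Col8a1 at 1135 ± 433 CPM (n = 12; 536 to 2224), above the other fibroblast-like cells in 12 of 12 libraries. The same cluster held Col12a1 at 499 ± 130 and Col16a1 at 179 ± 75.5 CPM, also above the others in 12 of 12, and Col14a1 at 60.5 ± 33.1, below them in 12 of 12. It passed for 3 of the tenocyte markers as well. The cluster led by Cxcl5, Saa3 and Sfrp1 (1638 cells), inflammatory and Wnt-antagonist genes, held Col12a1 at 485 ± 102, Col16a1 at 168 ± 22.0 and Col6a1 at 957 ± 199 CPM (n = 6).

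**Figure D3:**
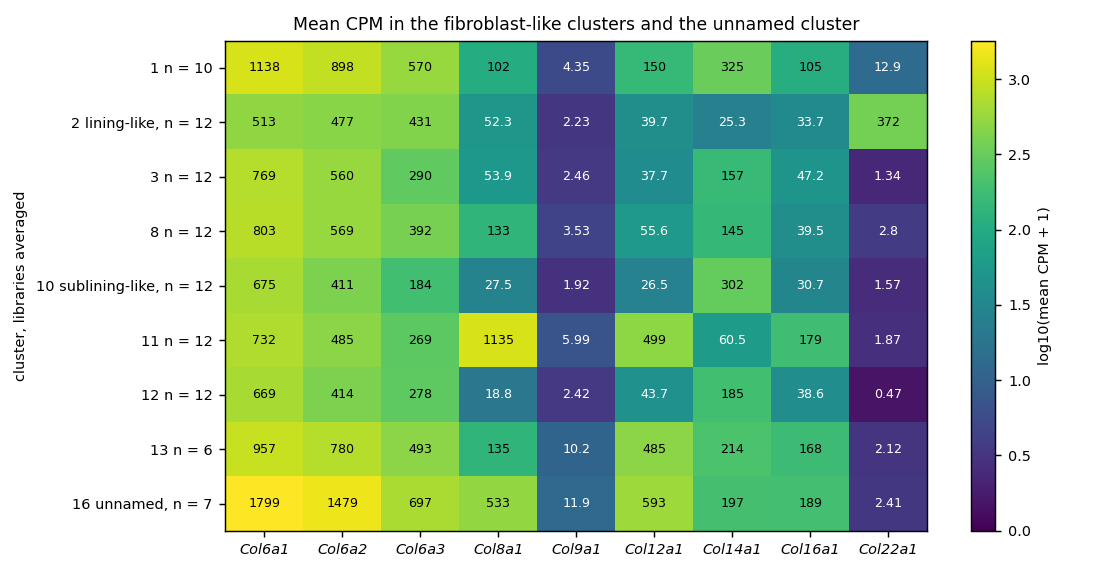
Mean level of each collagen (CPM, printed in each cell and coloured on a log10 scale) in the 8 fibroblast-like clusters and an unnamed cluster, labelled by cluster number and number of libraries averaged. Col8a1 is highest in cluster 11, led by Nppc (1135), Col22a1 in the lining-like cluster 2 (372), and Col14a1 in cluster 1, led by Acp5 (325), and the sublining-like cluster 10 (302).

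A cluster of 1431 cells led by Acp5, Col14a1 and Hmcn1 had the highest mean fibroblast levels of collagen VI. It held Col6a1 at 1138 ± 278, Col6a2 at 898 ± 153, Col6a3 at 570.4 ± 136 and Col14a1 at 325 ± 105 CPM (n = 10). Of its 10 libraries 1 was of suffixes 1 to 3. In suffixes 7 to 9 its median Col6a3 was 624 CPM, below lining-like cells (1009) and the cluster led by Hmcn2 and Ccl11 (729). Its median Col6a1 there, 1055, was below that of the cluster led by Cxcl5 (1140). The cluster with the most cells (2130, led by Ifi205, C4b and Cyp2f2) held little Col8a1 (18.8 ± 14.6 CPM), Col12a1 (43.7 ± 19.7) and Col22a1 (0.470 ± 0.990), but Col6a1 at 669 ± 110 and Col14a1 at 185 ± 78.7 CPM (n = 12). Col6a1 thus ranged from 513 to 1138 CPM over the 8 clusters, whereas the cluster means of Col8a1 ran from 18.8 to 1135 CPM and those of Col22a1 from 0.470 to 372 CPM.

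By label, no member was called. This comparison takes each label as belonging to the matrix deposited with it. The nearest library shared the label for 0 of 12 libraries, and whether labels and matrices belong together was not settled from the files used here. If they do not, the comparison is not one of disease stages. Across peak, resolving and resolved against rest, 0 of 27 comparisons of a member in fibroblast-like cells were called, and the ranges of both groups overlapped in all 27 (ranges without overlap in 3%, 4.55% and 2.91% of all genes). Of all 11625 genes tested 0 were called in each (0%), with 65, 106 and 86 genes at an unadjusted p below 0.05 and DESeq2 calling 1 gene in each. Col6a3 was at 241, 429 and 675 CPM in the rest libraries, 171, 433 and 167 in peak, 215, 520 and 160.4 in resolving, and 380.3, 656 and 164 in resolved. Col6a1 was at 808 ± 109 CPM in rest, 679 ± 105 in peak, 805 ± 210 in resolving and 782 ± 218 in resolved (n = 3 each). Col12a1, which had wide intervals beside Col9a1, had 95% intervals of the log2 difference from rest of -2.18 to 1.43 (peak), -3.01 to 0.65 (resolving) and -1.77 to 1.83 (resolved). These intervals hold the differences that 3 libraries a group leave compatible with the values, and the smallest detectable difference was not computed.

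**Figure D4:**
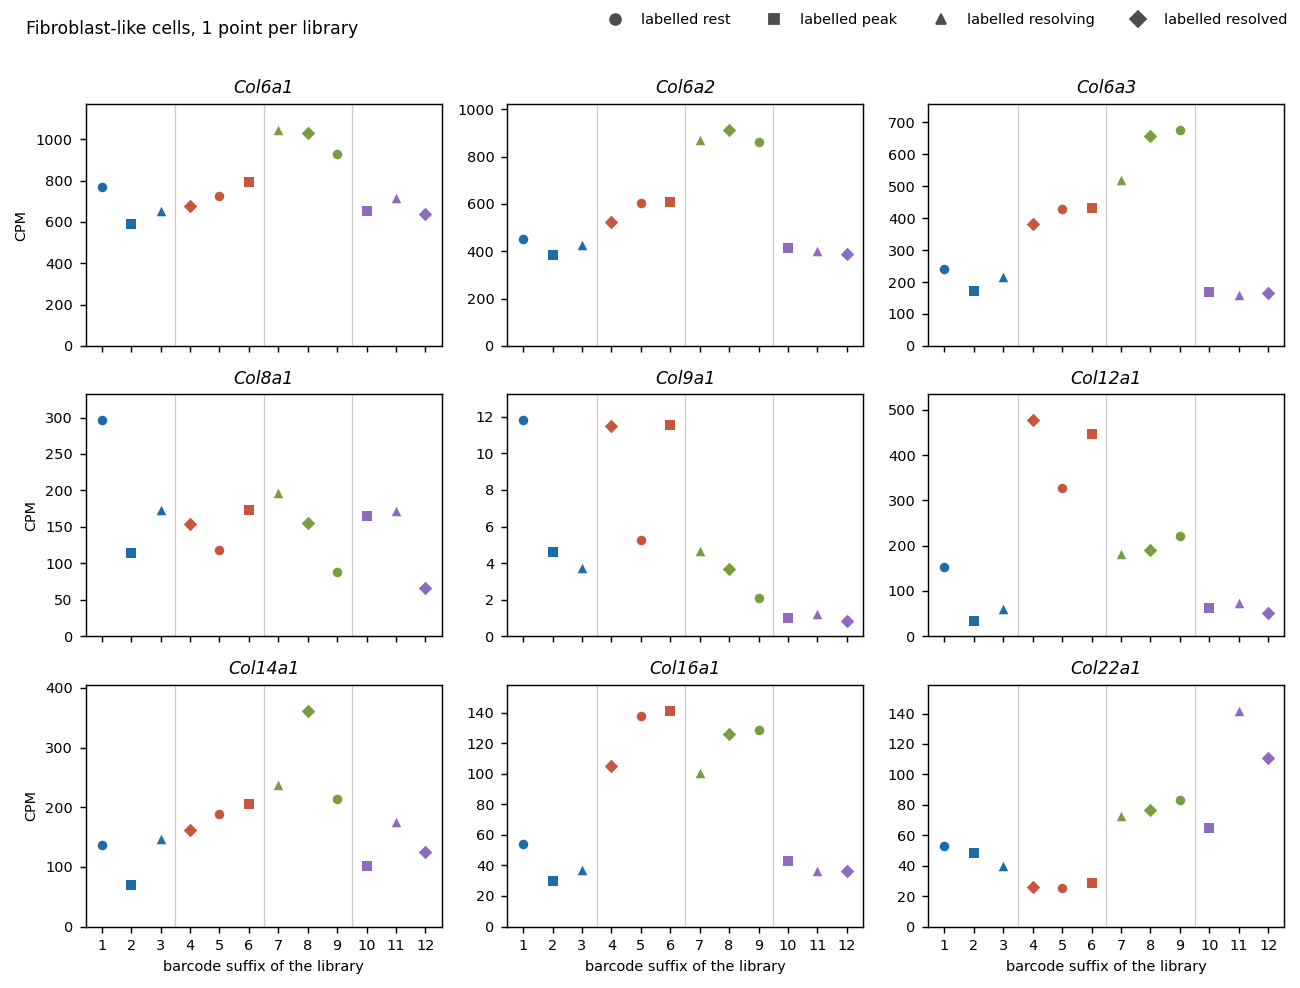
Level of each collagen (CPM) in fibroblast-like cells of each library, ordered by barcode suffix 1 to 12, with the marker giving the label and the colour the run of suffixes. Col6a3, Col12a1 and Col16a1 are higher in suffixes 4 to 6 than in 1 to 3, and the markers of the labels are mixed within each run.

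By run of barcode suffixes 13 of 27 comparisons were called. The runs were taken as groups because earlier results of these data had shown libraries of the same run to be alike. The p-values do not allow for that choice, so these calls describe the runs and cannot be weighed against those by label. Between suffixes 4 to 6 and 1 to 3, 5 members were higher and 1 lower, where 34.6% of all genes tested were called (16.9% higher, 17.7% lower). Between 7 to 9 and 4 to 6, 3 were higher and 2 lower (18.3% of all genes, 9.87% higher and 8.45% lower). Between 10 to 12 and 1 to 3, 1 was higher and 1 lower (1.7% of all genes, 1.17% higher and 0.533% lower). The comparisons of suffixes 4 to 6 and 10 to 12 share the libraries of 1 to 3. Those of 4 to 6 against 1 to 3 and of 7 to 9 against 4 to 6 share the libraries of 4 to 6, with opposite signs. The comparisons are thus not independent. Fewer cells of a type and less RNA per cell cannot be told apart in summed counts. The changes are therefore also given within single clusters where the member was tested there: lining-like cells, sublining-like cells and the cluster with the most cells. A sum over the 6 clusters with at least 10 cells in every library is given too, in which the shares of the clusters still differ by run.

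Col12a1 differed most between suffixes 4 to 6 and 1 to 3. It was at 153, 33.7 and 60.2 CPM in suffixes 1 to 3 and 477, 327 and 446 in 4 to 6, which was 2.44 higher on the log2 scale (SE 0.35, adjusted p = 7.58e-05). The difference was 3.56 in lining-like cells and 1.46 in the cluster with the most cells, both called, but 0.75 in the clusters found in every library (adjusted p = 0.201) and 0.74 in sublining-like cells (adjusted p = 0.652), not called. Suffixes 7 to 9, at 182, 192 and 221 CPM, were lower than 4 to 6 (log2 change -1.12, SE 0.34, adjusted p = 0.0246), a call lost without peak replicate 2, resolving replicate 2, or resolved replicate 1 or 2 (-1.08 to -1.02). With the unnamed cluster led by C1qtnf3, found mainly in suffixes 7 to 9, counted among the fibroblasts the difference was -0.11 and not called, and in lining-like cells alone it was 0.21. Col16a1 was at 54.3, 29.7 and 36.8 CPM in suffixes 1 to 3 and 105, 138 and 141 in 4 to 6 (log2 change 1.77, SE 0.18, adjusted p = 2.96e-06) and was at 101, 126 and 129 in suffixes 7 to 9, which was not called. The first difference was called in lining-like (2.36) and sublining-like cells (1.78) but not in the clusters found in every library (0.74, adjusted p = 0.0637) or the cluster with the most cells (0.99, adjusted p = 0.095). Suffixes 10 to 12 were at 42.8, 36.5 and 36.4 CPM of Col16a1 and 63.3, 73.4 and 52.4 CPM of Col12a1, not called against 1 to 3.

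Of collagen VI, Col6a3 was at 241, 171 and 215 CPM in suffixes 1 to 3 and 380.3, 429 and 433 in 4 to 6 (log2 change 1.08, SE 0.12, adjusted p = 7.6e-06). It was at 519.8, 656 and 675 in 7 to 9, again higher than in 4 to 6 (0.52, SE 0.12, adjusted p = 0.00586). The second call was lost without rest replicate 3 or resolved replicate 1 or 2 (0.46 to 0.50). Among the selections of clusters the first was called in lining-like cells (2.35), sublining-like cells (0.93) and the clusters found in every library (0.97), not in the cluster with the most cells (0.65, adjusted p = 0.123). Of these 4 selections the clusters found in every library alone gave the second call (0.57, adjusted p = 0.0429), against 0.61 in lining-like, -0.092 in sublining-like cells and 0.17 in the cluster with the most cells. Col6a2 followed the same order, with 450.2, 386 and 426 CPM, then 523, 602 and 607 (0.55 higher, SE 0.09, adjusted p = 0.000208), then 872, 912 and 864 (0.56 higher, SE 0.09, adjusted p = 0.000555). The first was lost without rest replicate 2 (0.49) and the second without resolved replicate 1 (0.49), both just under the fold limit of 0.5. The first was called in lining-like cells (1.15, adjusted p = 0.000222) but was 0.058 in the clusters found in every library (adjusted p = 0.768), -0.072 in sublining-like cells and -0.032 in the cluster with the most cells, not called. The second was called in lining-like cells (0.86), sublining-like cells (0.82) and the clusters found in every library (0.80), not in the cluster with the most cells (0.44, adjusted p = 0.442). Col6a1 differed less, with 590.2 to 768 CPM in suffixes 1 to 3, 676 to 794 in 4 to 6 and 931 to 1045 in 7 to 9. The last difference, 0.40 on the log2 scale, had an adjusted p of 0.00929 but was below the fold limit, while it was called in lining-like cells (0.88, adjusted p = 0.00568) and in the clusters found in every library (0.57, adjusted p = 0.0085). Col14a1 was higher in suffixes 4 to 6 (162, 188 and 206 CPM) than in 1 to 3 (137, 69.6 and 147) by 0.75 (SE 0.25, adjusted p = 0.0233), a call lost without rest replicate 2 or peak replicate 1 or 2 (0.49 to 0.71). It was called in none of these selections, at 0.75 in lining-like cells (adjusted p = 0.186), 0.62 in sublining-like cells (adjusted p = 0.32), 0.91 in the cluster with the most cells (adjusted p = 0.227) and 0.29 in the clusters found in every library (adjusted p = 0.46).

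Col22a1 went the other way. It was at 52.9, 48.5 and 39.5 CPM in suffixes 1 to 3 and 26.1, 25.2 and 28.5 in 4 to 6 (log2 change -0.73, SE 0.22, adjusted p = 0.013). It was at 73.0, 76.6 and 83.5 in 7 to 9 (1.49 above 4 to 6, SE 0.21, adjusted p = 0.00025) and 64.5, 142 and 111 in 10 to 12 (1.24 above 1 to 3, SE 0.21, adjusted p = 0.00869). In lining-like cells alone it was not called in any of the 3 comparisons (log2 changes -0.33, 0.49 and 0.30), at 335 to 366, 230.2 to 333, 359 to 470.3 and 402 to 458 CPM in the 4 runs. The share of lining-like cells among fibroblast-like cells was 6.21 to 7.98%, 8.6 to 10.1%, 11.6 to 15.2% and 9.67 to 17.8%. The direction of the first comparison was not stable: it was 0.21 with cells thinned to 2000 UMIs, 0.97 in the 6 clusters found in every library (called, adjusted p = 0.0151) and 2.47 without the lining-like and sublining-like clusters, where Col22a1 is near 0. The second was 0.78 in the clusters found in every library (adjusted p = 0.0852, not called), and the third was called there (1.32, adjusted p = 0.0124). Col8a1 was called in none of the comparisons, with 66.8 to 296 CPM over the 12 libraries.

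Col9a1 in fibroblast-like cells was at 11.8, 4.60 and 3.73 CPM in suffixes 1 to 3, 11.5, 5.24 and 11.5 in 4 to 6, 4.67, 3.70 and 2.1 in 7 to 9 and 1.01, 1.24 and 0.812 in 10 to 12. It was lower in 10 to 12 than in 1 to 3 (log2 change -2.63, SE 0.53, adjusted p = 0.0208) and lower in 7 to 9 than in 4 to 6 (-1.38, SE 0.40, adjusted p = 0.0219). The first call was lost without rest replicate 1, peak replicate 3, resolving replicate 3 or resolved replicate 3 (-2.74 to -1.95), the second without rest replicate 3, peak replicate 2, or resolved replicate 1 or 2 (-1.37 to -1.21). With the unnamed cluster led by C1qtnf3 counted among the fibroblasts the second difference was -0.06 and not called. Col9a1 was too low to be tested in any single cluster. In the clusters found in every library the first difference was -3.0 (adjusted p = 0.0188) and the second 0.82 (adjusted p = 0.685, not called), while suffixes 4 to 6 were called lower than 1 to 3 (-2.24, adjusted p = 0.0452), against 0.53 in all fibroblast-like cells (adjusted p = 0.262). Chondrocyte-like cells numbered 56 to 69 a library in suffixes 1 to 3, 10 to 18 in 4 to 6, 4 to 40 in 7 to 9 and 0 to 6 in 10 to 12. Other cartilage genes were lower with it in 10 to 12 against 1 to 3: Col2a1 (-3.71), Col9a3 (-3.41), Col11a2 (-2.89) and Col9a2 (-1.87). Their part in the result was not tested.

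The make-up of the fibroblast-like cells differed by run, and so did levels of some members within single clusters. The cluster led by Cxcl5, which was high in Col12a1 and Col16a1, made up 44.1 to 50.3% of fibroblast-like cells in suffixes 4 to 6, 9.30 to 14.1% in 7 to 9, at most 0.123% in 1 to 3 and 0% in 10 to 12. The cluster led by Acp5 made up 24.4 to 50.9% in 7 to 9 and at most 8.38% in any other library. It had the highest collagen VI means, but in 7 to 9 its median Col6a3 (624 CPM) was below that of lining-like cells (1009). In lining-like cells alone 7 of 24 comparisons (8 members) were called: Col6a1, Col6a2, Col6a3, Col12a1 and Col16a1 between suffixes 4 to 6 and 1 to 3 (16.1% of all genes tested called) and Col6a1 and Col6a2 between 7 to 9 and 4 to 6 (2.21%). There Col6a3 was 2.35 higher in suffixes 4 to 6 than in 1 to 3 (SE 0.24, adjusted p = 1.18e-06). In sublining-like cells 4 of 21 (7 members) were called: Col6a3 and Col16a1 higher in 4 to 6 than in 1 to 3 (1.92% of all genes), Col6a2 higher in 7 to 9 than in 4 to 6 (0.769%) and Col6a3 lower in 10 to 12 than in 1 to 3 (1.7%). In the cluster with the most cells 1 of 21 was called, Col12a1 between 4 to 6 and 1 to 3 (2.28% of all genes). In the sum over the 6 clusters with at least 10 cells in every library 8 of 27 were called: Col6a3, Col9a1 and Col22a1 between 4 to 6 and 1 to 3 (8.99%), the 3 collagen VI chains between 7 to 9 and 4 to 6 (2.59%), and Col9a1 and Col22a1 between 10 to 12 and 1 to 3 (1.27%). That sum does not hold the shares of its clusters fixed. Sublining-like cells made up 17.3 to 24.9% of fibroblast-like cells in suffixes 1 to 3 and 3.53 to 4.15% in 4 to 6. Of the 13 calls in all fibroblast-like cells, 5, 3, 1 and 5 were also called in the same direction in these 4 selections.

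Fibrillar collagens were called beside them. Between suffixes 4 to 6 and 1 to 3, 7 of 9 were higher and 2 lower (list median 1.65, all genes -0.01), with Col5a3 at 2.54 and Col11a1 at 2.53 among the higher and the cartilage collagens Col11a2 (-1.88) and Col2a1 (-1.71) lower. Of 9 matrix partners tested 2 were higher (Tnc 3.91, Bgn 1.24) and 2 lower (Tnxb -2.15, Comp -0.76). Of 9 receptors 2 were higher and 3 lower, and of 4 further chains 3 were lower, among them Col9a3 (-1.49) and Col6a6 (-1.35). Between 7 to 9 and 4 to 6 the lists had 1 fibrillar collagen lower (Col11a1, -1.14), 4 receptors and 3 matrix partners higher (Matn2 1.16 and Tnxb 1.09 among them), Tnc lower (-1.33) and Col6a6, another collagen VI chain, higher (2.39).

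The balance of the 3 collagen VI chains is given as the share of each in their summed UMIs. It compares libraries and classes, not the chains with each other, since 3′ counts are caught with unlike efficiency. The Col6a3 share in fibroblast-like cells was 19.5 ± 5.34% (n = 12). It was 14.9 to 16.6% in suffixes 1 to 3, 23.6 to 24.4% in 4 to 6, 21.3 to 27.3% in 7 to 9 and 12.5 to 13.8% in 10 to 12, so that the 6 libraries of suffixes 4 to 9 did not overlap with the other 6. The Col6a2 share stayed within 30.9 to 35.8% in all 12 libraries. Among classes the Col6a3 share was 12.1 ± 3.75% in tenocyte-like, 25.8 ± 1.74% in osteoblast-like (n = 12 each) and 30.5 ± 8.01% in chondrocyte-like cells (n = 8), and 26.0 ± 9.02% in lining-like against 14.1 ± 5.36% in sublining-like cells.

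**Figure D5:**
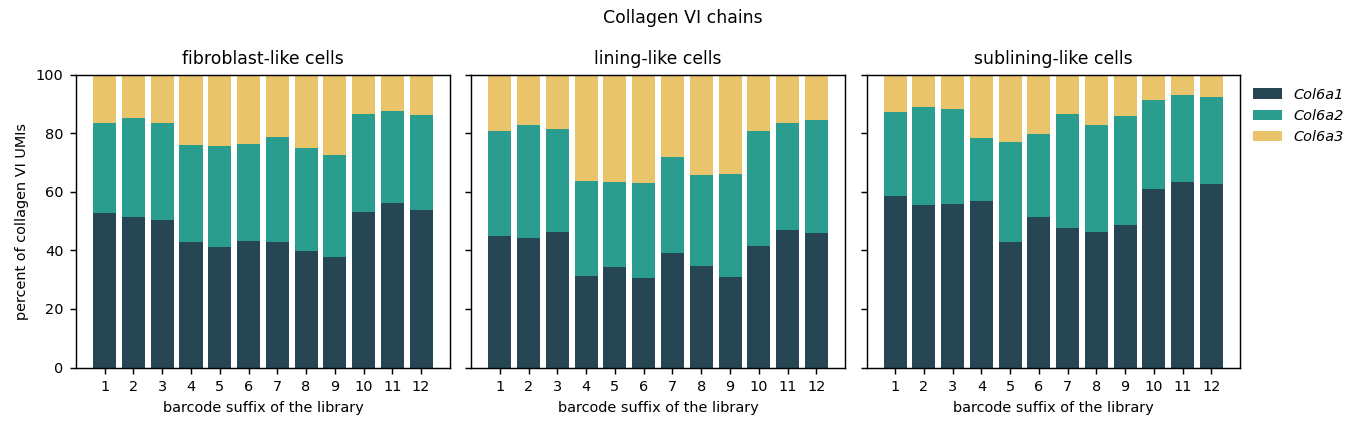
Stacked bars of the share of each collagen VI chain (percent of the UMIs of Col6a1, Col6a2 and Col6a3 together) in fibroblast-like, lining-like and sublining-like cells of each library, by barcode suffix. In fibroblast-like cells the Col6a3 share lies between 21.3 and 27.3% in suffixes 4 to 9 and between 12.5 and 16.6% in the others.

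Over the 23 clusters, the members' log levels were compared with those of 5412 genes by Pearson's r, as a description in which clusters share libraries. Col6a1 and Col6a2 (r = 0.98) and Col6a2 and Col6a3 (0.96) were closest among members, followed by Col6a1 and Col6a3 (0.91) and by Col12a1 and Col16a1 (0.89). Outside the set, the nearest genes were Gpx8 (0.96) for Col6a1 and Bgn (0.96), the proteoglycan biglycan, for Col6a2. Col9a1 lay nearest to Col9a2 and Matn3 (0.93 each), Col12a1 to Col11a1 (0.92), Col14a1 to Mfap5 (0.92), a microfibril protein, and Col16a1 to Snhg18 (0.92). Col8a1 had its nearest gene at 0.83 (Mxra8) and Col22a1 at 0.66 (Prg4, lubricin).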

How the data were processed

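Single-cell RNA-seq libraries (10x 3′ chemistry) were made from sorted CD45-negative cells of 12 pools of 3 mice. Per the submitters' processing notes in the labels, the authors used Cell Ranger and mm10. The deposited matrices hold whole-number UMI counts per gene and cell. Whether depth was evened out between libraries before deposit is not given in the sources used here.

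Cells with 500 to 5000 genes and 500 to 20000 UMIs were kept, with upper UMI limits of 40000 for libraries labelled peak, 25000 for resolving replicate 1 and 30000 for resolving replicates 2 and 3. After leaving 23 collagen genes out, 1977 variable genes, 30 principal components and 20 neighbours gave 23 Leiden clusters (resolution 1; scanpy 1.11.5, leidenalg 0.10.2). A class was named where at least 4 of its markers passed (in at least 20% of the cluster's cells and at least 1 higher than in other cells on the log2 scale; 3 markers for the lining and sublining). Clusters with no such class were called fibroblast-like where at least 5 of the 7 fibroblast markers were in at least 30% of cells. A cluster that met the fibroblast rule and held none of its class's markers among its 10 leading genes, or that had more markers of another class there, stayed unnamed. Doublets were kept in the reported values: Scrublet with its own threshold marked 56 cells, too few to rely on, and the alternative removed the 6% of cells with the highest scores.

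Counts were summed per library and class (at least 10 cells) and tested with edgeR 4.0.16 (R 4.3.3; quasi-likelihood test, TMM scaling, filterByExpr, two-sided, Benjamini-Hochberg over all genes). The library was a block between classes and subsets, and no block was used by label or run. Alternatives, including DESeq2 1.42.0, other filters, clusterings, thinned cells and left-out libraries, are given in the closing section, and 4 kinds of them were added after seeing the data: lining-like cells only, sublining-like cells only, other selections of clusters, and an unnamed cluster among the fibroblasts. Scripts were tested on simulated data. GRCm38 positions come from GENCODE and promoters from RefSeq.

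The members, gene lists, markers and the grouping by run of suffixes were chosen with earlier results of these data known. All 9 members were taken into every comparison, except where one was too low to be tested, and not every member is given by value in each. Of each gene list at most 2 called genes with the highest and 2 with the lowest log2 change are named, and of genes with a like pattern those with the highest r. Genes leading a cluster were named after their values were seen.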

Additional observations from a re-analysis of the deposited data

Results flagged for a closer look

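Col22a1 in proliferating cells of rest replicate 3 was at 89.3 CPM, far from the nearest library at 48.9 in a group of 6. It was the 1 value that stood apart in 15 groups of 4 to 10 libraries examined, and chance marks about 1 in 20 groups.

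Of 62 pairs of a member and a contrast of classes scanned, 18 had every library of some runs of barcode suffixes on the opposite side from every library of other runs. These differences between runs were not tested, and how often other genes show them was not counted. Each is given as the mean log2 ratio of the higher runs less that of the lower runs. Between lining-like and sublining-like cells it was 1.37 for Col6a2 (suffixes 4 to 9 against 1 to 3), 1.62 for Col6a3 (4 to 12 against 1 to 3) and 2.53 for Col12a1 (4 to 6 against 1 to 3 and 10 to 12). Between perivascular-like and fibroblast-like cells it was 1.32 for Col6a1 and 1.43 for Col6a3 (4 to 9 against the others), and 1.43 for Col6a2 (4 to 6 against 1 to 3 and 10 to 12).

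Between tenocyte-like and fibroblast-like cells suffixes 10 to 12 lay above 4 to 6 for Col6a2 (1.09) and Col16a1 (1.95), with 7 to 9 on their side for Col6a1 (0.51). They lay above 1 to 6 for Col8a1 (1.66) and above 4 to 9 for Col9a1 (3.46), and below 1 to 6 for Col22a1 (3.43). The Col9a1 value is near the floor, with 23 UMIs in tenocyte-like cells, found in 7 of 12 libraries. Suffixes 4 to 6 lay below all others for Col12a1 (1.99). In chondrocyte-like cells Col6a2 differed by 1.19 (1 to 3 against 4 to 6). In proliferating cells suffixes 7 to 9 lay above 4 to 6 for Col6a1 (0.50), Col8a1 (1.28), Col12a1 (1.37) and Col16a1 (1.14).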

How the results depend on the processing

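Leaving out 1 library at a time, calls numbered 64 to 69 across cell types, 5 between the subsets, 0 by label and 9 to 13 by run, and the Col6a3 share was 18.8 to 20.1%. Under other alternatives they numbered 63 to 70, 4 to 6, 0 and 1 to 14, and the share was 18.5 to 19.7%. By run 13 comparisons were called in all fibroblast-like cells, 7 in lining-like cells only, 4 in sublining-like cells only, 1 in the cluster with the most cells and 8 in clusters with 10 cells in every library, of which 5, 3, 1 and 5 were among the 13 in the same direction. Reversed values were, for Col8a1 between the subsets, -0.15 (no upper limits) and -0.28 (collagen genes clustered). Between suffixes 4 to 6 and 1 to 3 they were -0.072 (sublining-like) and -0.032 (cluster with the most cells) for Col6a2, and 0.21 (thinned), 2.47 (without lining-like and sublining-like clusters) and 0.97 (clusters in every library) for Col22a1. Between 7 to 9 and 4 to 6 they were 0.82 (clusters in every library) for Col9a1, -0.092 (sublining-like) for Col6a3, and 0.21 (lining-like) and 0.91 (sublining-like) for Col12a1. The causes were not tested. Single calls were followed under all alternatives, leaving out the 10 cell-type calls that rested on 3 or fewer UMIs. For the other 57 cell-type calls, 1255 of 1311 values kept their direction and side of the threshold. Between the subsets 103 of 110 did so, and by run 285 of 352.

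With the replicate block 0 members were called by label, and 108, 131 and 117 of all genes had an unadjusted p below 0.05. Same-numbered libraries correlated at -0.54 to 0.70, over 0.1 in 11 of 18 pairs, which does not tie libraries by number. With the run as a block 0 genes were called, with 347, 380 and 435 at p below 0.05. Over all genes the run comparisons called 4022, 2129 and 198, against 1995, 886 and 129 with cells thinned to 2000 UMIs, 1182, 162 and 71 in lining-like cells, 120, 48 and 106 in sublining-like cells, 140, 7 and 17 in the cluster with the most cells and 974, 281 and 138 in clusters in every library. The last comparison called 475 with no filter on low counts, 91 with the label as covariate, 112 without the lining-like and sublining-like clusters and 295 with DESeq2. Other scaling moved the share of higher calls over 10 percentage points in erythroid-like (44.9 to 80.7%), lymphatic (33.3 to 63.2%), Schwann-like (30.1 to 75.7%), muscle-like (29.4 to 46.04%), immune-like (41.3 to 53.9%), osteoblast-like (46.04 to 57.2%) and proliferating cells (44.2 to 30.01%). Depth limits Col9a1 outside chondrocyte-like cells (365 UMIs in all fibroblast-like cells) and every member in the classes with fewer than 300 cells.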

Other observations

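Among the unnamed clusters, 1 of 1345 cells led by C1qtnf3, Spon2 and Slc40a1 exceeded every fibroblast-like cluster in mean collagen VI levels. Col6a1 was at 1799 ± 329, Col6a2 at 1479 ± 284 and Col6a3 at 697 ± 267 CPM (n = 7), each above fibroblast-like cells in 7 of 7 libraries. Col12a1 (593 ± 171), Col8a1 (533 ± 478) and Col16a1 (189 ± 89.3) were above them in 7 of 7 as well, while Col22a1 was at 2.41 ± 2.98 CPM. The cluster passed for 4 tenocyte markers, none of them among its 10 leading genes, and held 7 of 7 fibroblast markers in at least 30% of its cells, so it was not named. It made up 15.0, 23.2 and 26.5% of the kept cells in suffixes 7 to 9 and 0 to 2.94% in every other library. Its 7 libraries were of suffixes 4 to 12, and by run its Col6a3 was not always the highest. In suffixes 10 to 12 it held 329 and 381 CPM of Col6a3, against 372 to 488 in the cluster led by Acp5. In 7 to 9 its median of Col6a3 was 949, against 1009 in lining-like cells.

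A cluster of 923 cells led by Cytl1, Clu and Tnfrsf11b, found in 12 libraries, held Col6a1 at 1191 ± 452 and Col6a3 at 441 ± 249 CPM. Its Col14a1 level, 15.3 ± 14.7 CPM, was below fibroblast-like cells in 12 of 12 libraries. A cluster of 132 cells led by the muscle fibre genes Tnnc2, Acta1 and Pvalb was below fibroblast-like cells in 8 of the 9 collagens in 5 of 5 libraries, with Col6a1 at 26.0 ± 19.5 CPM, while Col9a1, at 19.1 ± 9.90 CPM (n = 5), was above them in 5 of 5. These clusters enter no comparison, except where the first is counted among the fibroblasts as an alternative.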
